A study of Mus musculus with 8 samples.

Results

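Cholesterol is built from acetyl-CoA through the mevalonate pathway, which makes isoprenoid units, joins them into squalene and closes the sterol ring. When membrane sterol is low, the transcription factor SREBP2 (the product of Srebf2) is released from the endoplasmic reticulum and raises transcription of the enzymes and of Insig1, whose product retains the SREBP complex. The mammary gland secretes cholesterol in the membrane around each milk fat globule, and its basal myoepithelial cells contract to expel milk. The 8 genes described here were chosen by symbol out of 27998 genes in the count tables: Hmgcs1, Mvd, Idi1, Fdps, Sqle and Lss (enzymes), Insig1 and Srebf2 (regulators). All are protein-coding genes of the GRCm38 annotation: Hmgcs1 at chr13:119690379-119708260, Sqle at chr15:59315077-59331192, Idi1 at chr13:8885501-8892451, Fdps at chr3:89093588-89101959, Lss at chr10:76531588-76557138, Insig1 at chr5:28071363-28078662, Srebf2 at chr15:82147181-82205379 and Mvd at chr8:122433601-122443422. Fdps and Mvd lie on the minus strand, the others on the plus strand. The list holds no uptake receptor, so uptake was read from a separate list.

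Single EpCAM-positive mammary cells of C57BL/6N mice were sequenced with the 10x Chromium 3′ kit after CD31, CD45 and Ter119 positive cells had been gated out. There were 4 stages with 2 mice each and 1 library per mouse: nulliparous mice aged 8 weeks (NP), pregnant mice on day 14.5 (G), nursing mice on day 6 (L) and mice weaned naturally 11 days earlier (PI). After the quality flags of the authors, 25009 cells remained, with 13306760 to 34552742 UMIs (counted molecules) per library. UMIs were summed per library and authors' cluster (C1 to C15 epithelial, C16 to C19 other cells), and levels are given as CPM, the share of such a sum that 1 gene takes.

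The names of the authors' clusters were checked against marker genes. C8 (G) and C9 (L) are differentiated alveolar cells (Avd), C10 (G) and C11 (L) alveolar progenitors (Avp), C6 (NP) and C7 (PI) luminal progenitors (Lp), C2 (NP) and C1 (PI) hormone-sensing progenitors (Hsp), C4 (NP), C3 (PI) and C5 (G) differentiated hormone-sensing cells (Hsd). C12 (NP), C13 (G) and C14 (L) are basal. The alveolar markers Csn2, Wap and Lalba summed to 604.5 to 1194 CPM in C10, overlapping 355 to 641.2 CPM in C13. The luminal markers Krt8 and Krt18 summed to 4375 to 5471 CPM in C10 and 811.8 to 815.1 CPM in C13. In C9 the luminal markers summed to 1195 to 2392 CPM, overlapping 1039 to 1521 CPM in C14. The alveolar markers of C9 reached 185300 to 190800 CPM. C15 (L), a basal cluster in the naming of the study, has mixed markers: its summed basal markers stood at 7717 to 8886 CPM, and its summed pericyte markers (Des, Cspg4, Rgs5 and Pdgfrb) at 4819 to 5441 CPM against 53.4 to 108.6 CPM in C14. Markers of the adipocyte list were also high in C15 (4266 to 4855 CPM, from 2 of 4 genes), so it is called by its number only. The summed basal markers Krt5, Krt14 and Acta2 reached 29140 to 32450 CPM in C14 and 14110 to 17910 CPM in C13. The same markers stood at 107 to 111 CPM in C8 and 126 to 197 CPM in C10, but at 879 to 2012 CPM in C9 and 3323 to 4647 CPM in C11. The luminal clusters of lactation therefore carried more basal marker RNA than those of gestation, and its part in the differences below was not tested.

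Each library holds 1 stage only, so stage and library cannot be told apart beyond the spread between the 2 mice. The summed level of 8 milk protein genes was 447500 and 417200 CPM in C9 against 96650 and 57390 CPM in C8, which lowers the CPM of every other gene in C9. Fold changes were therefore scaled by TMM, which centres on the bulk of genes. With library totals in its place, the median of all genes moved from -0.16 to -1.06 (log2) in C9 against C8, from -0.02 to -0.91 in C9 against C11, from -0.03 to -0.33 in C11 against C10 and from 0.04 to -0.07 in C14 against C13.

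Promoter windows (RefSeq, GRCm38.p6, 250 bases before to 50 after the start) were matched by symbol for 6 of the 8 members, not for Sqle or Fdps, and are shown because SREBP2 is known to bind upstream of genes of this pathway. The sterol regulatory element core TCACNCCAC, searched on both strands, was found in 1 of the 6 windows, Hmgcs1, and in 1.24% of all 32851 windows. A form shorter by its last base, TCACNCCA, was added after the windows were seen. It was also found in Srebf2, and in 4.36% of all windows. The CCAAT box was found in 6 of 6 member windows and 37.4% of all, and the GC box GGGCGG in 6 of 6 and 35.7% of all. The stretches around both SREBP-type matches are shown with these matches and CCAAT boxes (or their complement ATTGG) in capitals.
Hmgcs1, chr13:119690174-119690273, plus strand, upstream of the start: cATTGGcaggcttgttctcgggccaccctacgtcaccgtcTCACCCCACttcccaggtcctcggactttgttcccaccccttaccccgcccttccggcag
Srebf2, chr15:82147067-82147166, plus strand, upstream of the start: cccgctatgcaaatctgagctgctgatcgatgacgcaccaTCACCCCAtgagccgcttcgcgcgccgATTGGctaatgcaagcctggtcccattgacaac
A match is a description of letters, not a measured binding site.

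The members did not share 1 pattern across the epithelium. Over the 35 epithelial sums, Pearson's r of log2(CPM + 1) between pairs of members ran from -0.66 for Sqle and Insig1 to 0.69 for Idi1 and Insig1 (a description, since sums of 1 mouse share a library). Levels of the members are compared between clusters within a gene, not between genes. Levels in C9 are also given with milk protein genes left out of the total for Fdps, Sqle, Srebf2 and Mvd. For Hmgcs1, Lss, Insig1 and Idi1 the total includes milk protein genes. This lowers the level of C9, and its place in their orders can depend on it. C5 of G is the smallest epithelial cluster (20 and 41 cells, 123242 and 258370 UMIs), so its levels and places in the orders below rest on few UMIs.

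**Figure D1:**
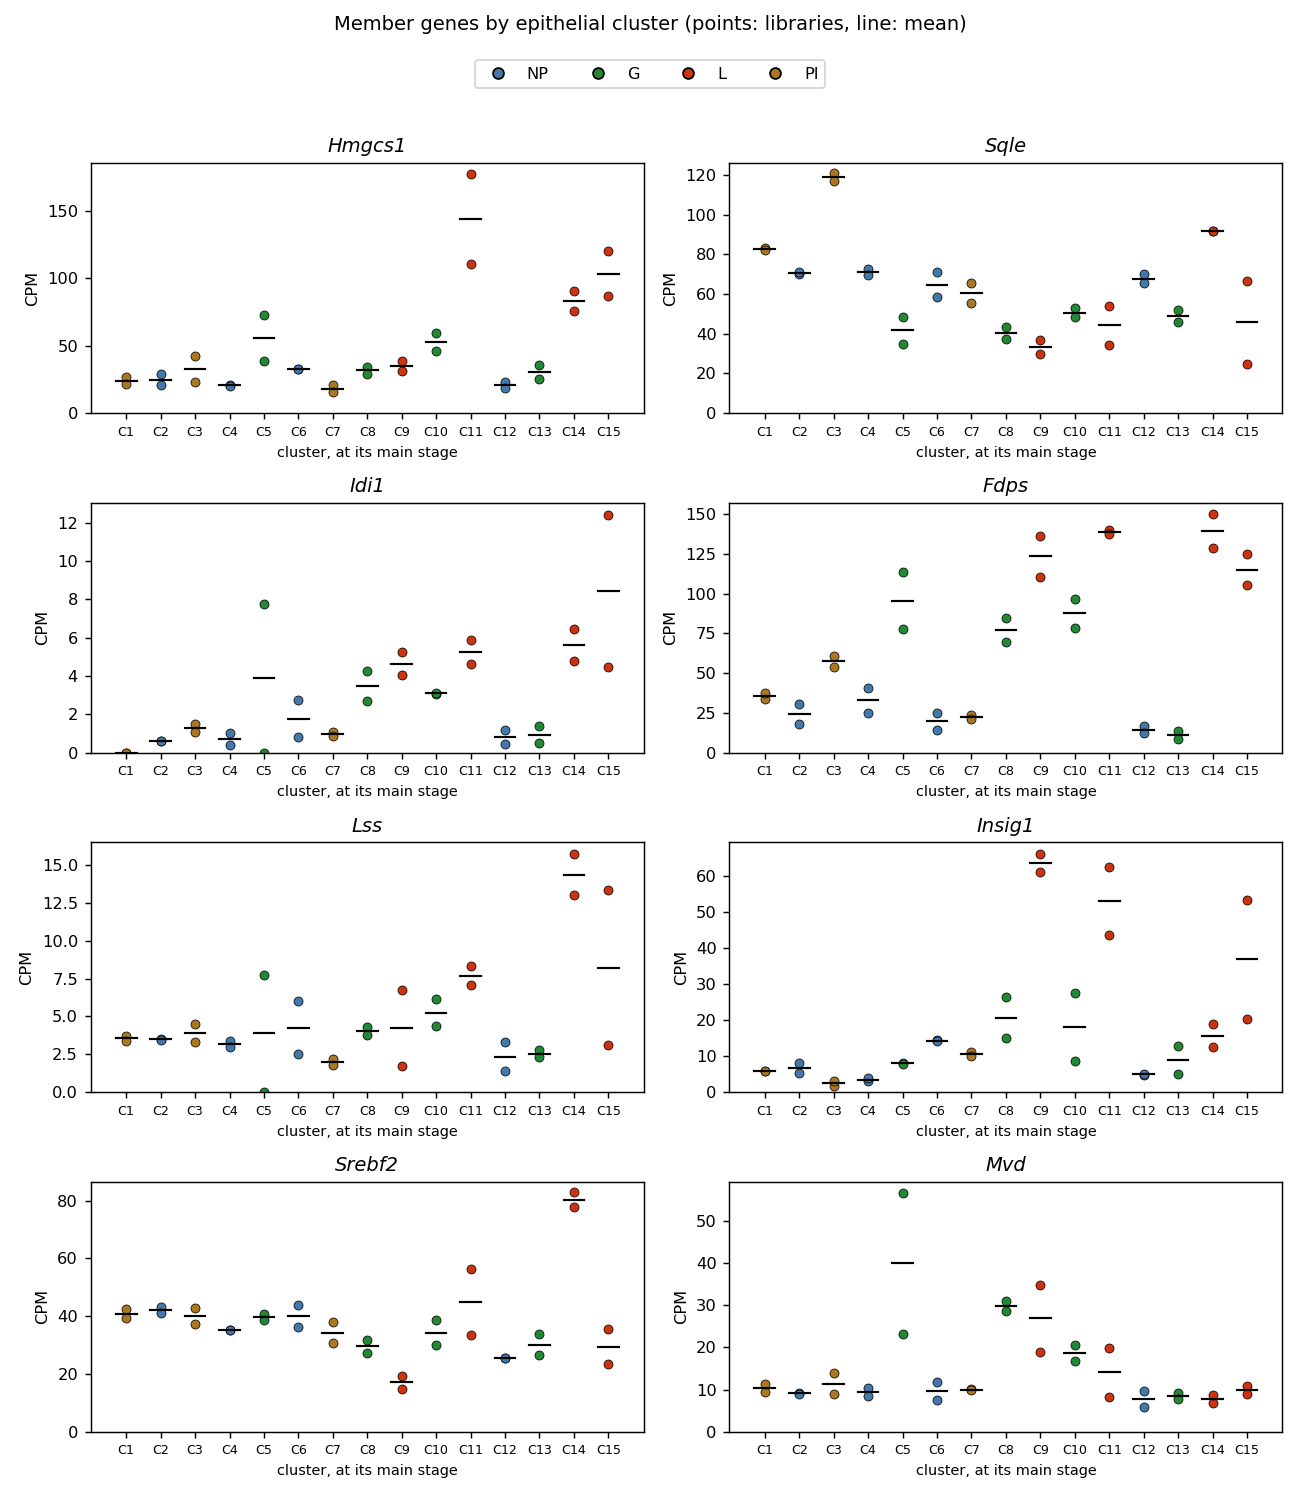
CPM of each member (y axis, linear from 0) in clusters C1 to C15 at the stage that holds most of their cells (x axis); points are the 2 libraries and lines their mean. The total behind each CPM includes milk protein genes. Fdps has its highest means in C14 and C11 of L and Hmgcs1 in C11 of L, Sqle is highest in C3 of PI, Srebf2 in C14 of L and Insig1 in C9 of L.

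Hmgcs1, which makes HMG-CoA for the pathway, was highest in C11 of L (144 ± 47.0 CPM, SD, n = 2), then C15 of L (104 ± 23.5) and C14 of L (83.2 ± 10.1). Those 3 clusters overlapped their neighbours in the order, and C14 lay above C5 of G (55.9 ± 24.3) without overlap. The lowest was C7 of PI (17.9 ± 3.61). Of 14 neighbouring pairs of clusters in the order of Hmgcs1, 2 did not overlap.

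Fdps, which makes farnesyl diphosphate at the branch to sterols and prenylated proteins, was highest in C14 (139 ± 14.9 CPM) and C11 (139 ± 1.51), and lowest in the basal clusters C13 of G (10.9 ± 3.83) and C12 of NP (14.4 ± 2.90). Without milk protein genes in the total, C9 came first (218 ± 40.3 CPM), ahead of C11 (148 ± 3.07) and C14 (139.7 ± 15.01), and C13 and C12 remained the lowest. In the order of Fdps, 3 of 14 neighbouring pairs did not overlap.

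Sqle, squalene epoxidase, had another order. Its level was 119 ± 2.89 CPM in C3 of PI, above C14 of L (91.7 ± 0.0204), C1 of PI (82.7 ± 0.521) and C4 of NP (71.0 ± 2.12), and lowest in C9 of L (33.2 ± 4.97). Without milk protein genes in the total C9 was no longer lowest, and C5 of G was (41.8 CPM). The libraries of C3, C14 and C1 each lay apart from the next cluster.

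Srebf2 stood apart at the top of its order. It reached 80.3 ± 3.80 CPM in C14, while the next, C11, had 44.9 ± 16.4, and it was lowest in C9 (17.02 ± 3.10). Without milk protein genes in the total C9 had 30.1 CPM, next to C13 with 30.1, and the lowest was C12 (25.5 CPM). Lss, lanosterol synthase, was also highest in C14 (14.4 ± 1.90 CPM), followed by C15 (8.23 ± 7.24).

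Insig1 was highest in alveolar cells of L, with 63.6 ± 3.46 CPM in C9 and 52.9 ± 13.3 in C11, and lowest in hormone-sensing C3 (2.41 ± 0.867). Mvd, which decarboxylates mevalonate diphosphate, had 40.01 ± 23.7 CPM in the small cluster C5, 29.9 ± 1.68 in C8 and 26.9 ± 11.4 in C9. In the order of Mvd no neighbouring pair of clusters lay apart (0 of 14). Without milk protein genes in the total Mvd was highest in C9 (47.8 ± 21.8 CPM). Idi1, isopentenyl diphosphate isomerase, was near the limit of detection: its highest mean was 8.44 ± 5.64 CPM (C15). In C1 of PI it had 0 UMIs in both libraries, which allows up to 1.59 and 0.597 CPM.

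The basal comparison of L with G sets C14, the myoepithelial cluster of the study, against the basal cluster C13. The cells come from different mice, and nothing here traces cells of C13 into C14. Rises and falls are differences between these clusters. Fdps had 128.9 and 150 CPM in the C14 libraries and 13.7 and 8.24 CPM in the C13 libraries. Both L libraries lay far above both G libraries, and the log2 fold change was 3.79 ± 0.22 (SE; edgeR quasi-likelihood test, Benjamini-Hochberg adjusted p = 1.52e-05). Of the 8 members, 6 rose and 0 fell, beside 24.1% of all tested genes called higher and 24.1% called lower.

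Idi1 had 4.78 and 6.44 CPM in L against 0.506 and 1.37 in G (8 UMIs in G in all), a change of 2.64 ± 0.46. Lss had 13.02 and 15.7 CPM against 2.78 and 2.29, a change of 2.61 ± 0.28. Neither gene overlapped between stages, and both passed the test in edgeR (adjusted p = 0.00219 for Idi1 and 0.000213 for Lss).

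Hmgcs1 rose by 1.56 ± 0.19 (76.1 and 90.3 CPM against 35.9 and 25.4; edgeR adjusted p = 0.000393). The regulator Srebf2 rose by 1.53 ± 0.16 (77.7 and 83.0 CPM against 33.6 and 26.5; edgeR adjusted p = 0.000171). Sqle rose by 1.01 ± 0.13, from 46.0 and 52.2 CPM to 91.7 and 91.7 (edgeR adjusted p = 0.000532). All 6 of these calls held under the 10 alternatives tried for each.

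Insig1 and Mvd did not pass in the basal cells. Insig1 had 18.8 and 12.5 CPM in L and 12.9 and 5.03 in G, which overlap, with a log2 difference of 0.93 ± 0.37 (edgeR adjusted p = 0.0684). It passed under 5 of 10 alternatives (without a filter, in 1 fit over all sums, with a replicate block, without G replicate 1 and without L replicate 2). Mvd had 6.91 and 8.61 CPM against 9.10 and 7.78, a log2 difference of -0.01 ± 0.25.

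The rest of the sterol pathway, a list of 12 enzymes, had 9 higher and 0 lower in C14, with a median log2 change of 1.64 beside 0.04 over all genes. Nsdhl, a demethylation enzyme, rose by 2.98 ± 0.18 and Fdft1, squalene synthase, by 2.67 ± 0.18. Pmvk, a kinase of the mevalonate steps, rose by 2.26 ± 0.17. Lbr, Ebp and Sc5d did not pass the test.

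The SREBP machinery did not move as 1 block: Srebf1 rose by 0.45 ± 0.15, Scap, which escorts SREBP, fell by 0.71 ± 0.21, and the other 3 of 5 did not pass. In the list of uptake, transport and efflux genes, 2 of 14 were higher and 5 lower. The cholesterol exporters Abca1 (5.49 and 4.57 CPM against 53.1 and 74.1) and Abcg1 (0.379 and 0.421 CPM against 2.78 and 1.83) were lower in L, by log2 changes of -3.54 ± 0.21 and -2.38 ± 0.52. Stard4, a sterol carrier inside cells, rose by 1.67 ± 0.22. Of the 8 genes of the isoprenoid branch, 0 rose and 2 fell. C14 cells were also shallower, with median depths of 3701 and 4148 UMIs per cell against 6201 and 6060 in C13. All 10 cell division genes fell in the same comparison, from 283 and 205 summed CPM in C13 to 25.8 and 15.1 in C14.

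**Figure D2:**
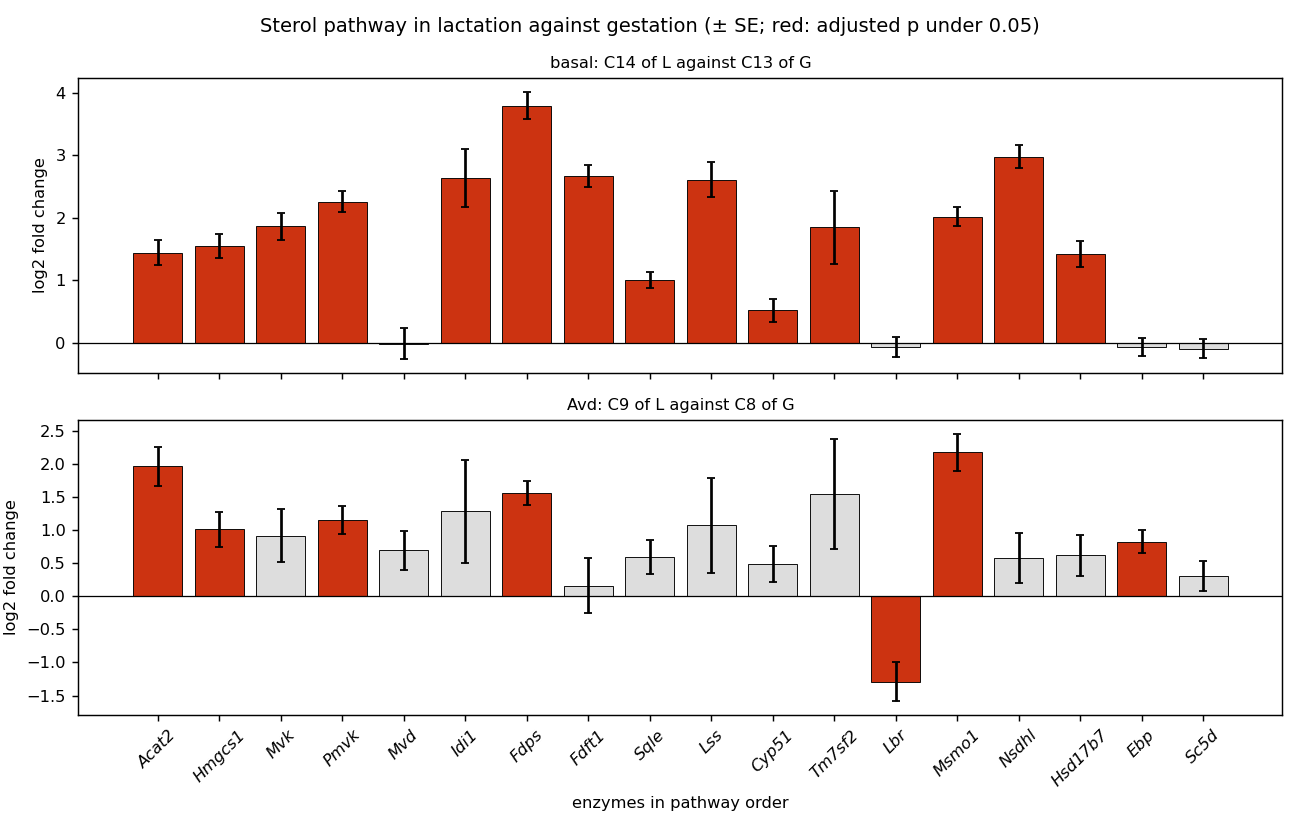
log2 fold change ± SE (y axis) of the sterol pathway enzymes, members included, in pathway order (x axis) for C14 against C13 (upper) and C9 against C8 (lower); red bars passed adjusted p under 0.05. In basal cells Fdps has the tallest bar, 3.79, and Mvd, Lbr, Ebp and Sc5d lie near 0; in Avd cells Lbr is the bar below 0, at -1.29.

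In Avd cells, L against G, 3 of 8 members were higher and 0 lower, beside 9.26% of all tested genes higher and 9.16% lower. C9 is small (42 and 47 cells). Insig1 had 61.1 and 66.0 CPM in C9 against 26.3 and 15.1 in C8, without overlap, and rose by 2.51 ± 0.35 (edgeR adjusted p = 0.000421). Fdps had 136 and 111 CPM against 84.5 and 69.8 and rose by 1.56 ± 0.19 (edgeR adjusted p = 0.000137). Both calls also held with library totals, at 1.62 and 0.67.

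Hmgcs1 had 38.4 and 31.0 CPM in C9 and 34.2 and 29.1 in C8, which overlap. Its TMM-scaled log2 change was 1.01 ± 0.26 (edgeR adjusted p = 0.0189), but 0.12 with library totals (edgeR adjusted p = 0.716), so that call rested on the scaling. It was also lost without G replicate 2, without L replicate 1 and without L replicate 2 (edgeR adjusted p = 0.0780, 0.0898 and 0.0540).

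Srebf2 had 19.2 and 14.8 CPM in C9 against 27.4 and 31.7 in C8, with a TMM-scaled log2 difference of 0.09 ± 0.30 (edgeR adjusted p = 0.876) and one of -0.81 with library totals (edgeR adjusted p = 0.0339). Its direction thus turned with the scaling. Sqle, Mvd, Lss and Idi1 did not pass, with log2 differences of 0.59, 0.69, 1.07 and 1.28, the last 2 from 6 UMIs each in C9.

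Among the 12 other sterol enzymes in Avd cells, 4 were higher and 1 lower, with a median of 0.72 beside -0.16 over all genes. Msmo1, which removes methyl groups from the sterol ring, rose by 2.17 ± 0.28 and Acat2, which starts the pathway from acetyl-CoA, by 1.96 ± 0.29. Lbr, a sterol reductase of the nuclear envelope, fell by 1.29 ± 0.30. Fatty acid synthesis genes moved more widely: 9 of 10 were higher and 0 lower, with Fasn at 2.90 ± 0.29 and Scd1 at 2.60 ± 0.23. Of 14 uptake, transport and efflux genes 3 were higher and 0 lower: Lipa, the lysosomal lipase that frees cholesterol from taken-up lipoprotein (2.29 ± 0.18), Abcg2 (2.15 ± 0.21) and the lipoprotein receptor Scarb1 (1.14 ± 0.29).

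In Avp cells, L against G, 3 of 6 tested members were higher and 0 lower, beside 16.0% of all tested genes higher and 12.9% lower. Hmgcs1 had 111 and 178 CPM in C11 against 59.7 and 46.2 in C10, a rise of 1.74 ± 0.24 (edgeR adjusted p = 0.000701). Insig1 had 43.5 and 62.3 CPM against 27.5 and 8.73, a rise of 1.88 ± 0.42 (edgeR adjusted p = 0.00967). Fdps had 140 and 138 CPM against 96.4 and 78.6, a rise of 0.97 ± 0.17 (edgeR adjusted p = 0.00268). In these 3 genes both L libraries lay above both G libraries, and the calls held under all 10 alternatives. Sqle (0.08 ± 0.25), Srebf2 (0.65 ± 0.29) and Mvd (-0.17 ± 0.40) did not pass, and Idi1 and Lss had too few UMIs to be tested.

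**Figure D3:**
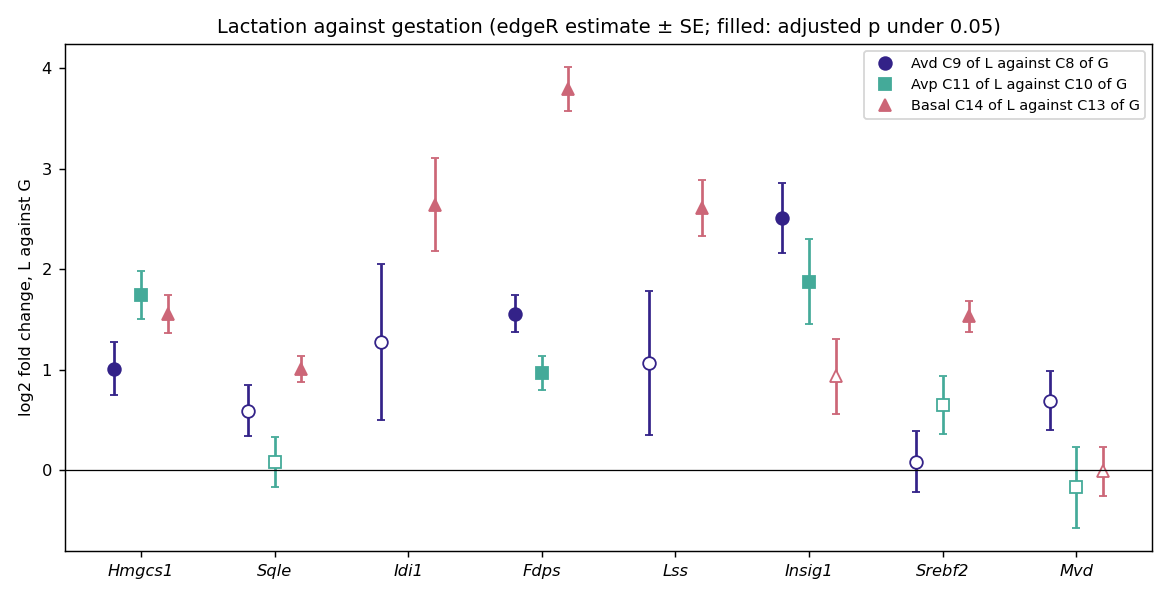
log2 fold change ± SE, L against G (y axis), for the 8 members (x axis) in Avd, Avp and basal cells; filled symbols passed adjusted p under 0.05, and Idi1 and Lss were not tested in Avp. Fdps and Hmgcs1 are filled in all 3 cell types (Hmgcs1 in Avd only with TMM scaling), Srebf2, Sqle, Idi1 and Lss in basal cells, Insig1 in the alveolar types.

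The difference between cell types was tested directly, as the change from C8 to C9 minus the change from C13 to C14 in the same 4 mice. In this test 1 of 8 members was higher and 2 lower, beside 8.30% of all tested genes higher and 10.3% lower. Fdps rose less in Avd than in basal cells (-2.31 ± 0.24, edgeR adjusted p = 2.1e-18). In this fit the spread was taken almost wholly from all genes together (2 residual and 1271 prior degrees of freedom). Its p-values therefore hardly reflect the spread of a single gene between mice. The difference for Srebf2, which passed in basal cells and not in Avd cells, was -1.53 ± 0.34 (edgeR adjusted p = 0.000153). That for Insig1, which passed in Avd cells and not in basal cells, was 1.53 ± 0.33 (edgeR adjusted p = 6.82e-05). The other members did not pass, with Hmgcs1 at -0.63, Sqle at -0.49, Idi1 at -1.42, Lss at -1.63 and Mvd at 0.63. The Fdps call held under all 10 alternatives, the Srebf2 call under 7 and the Insig1 call under 5. Without L replicate 2, Fdps alone passed. The median of all genes in this test was -0.28, and -0.98 with library totals.

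Fdps was not high in L in epithelial cells alone. In C18, where fibroblast markers lead (Col1a1, Col3a1 and Fn1), the 2 NP libraries had 7.22 and 9.37 CPM and the G libraries 63.4 and 53.2. The L libraries had 137 and 195 CPM, and the 1 PI library with enough cells 14.5. The C18 sums of NP held only 138497 and 320218 UMIs and that of PI 137920, so their Fdps levels rest on very few UMIs. In C17, where immune markers lead, Fdps had 48.7 and 39.2 CPM in G and 96.4 and 107 in L, and Hmgcs1 39.9 and 37.3 against 70.8 and 101. The study took C19 for endothelial cells, and all 3 endothelial markers were detected there (2209 to 2326 summed CPM in L). Its adipocyte-list level in L (12370 to 17590 CPM) came from 1 of 4 genes, while all 4 had UMIs in G. In C19, Fdps had 28.1 and 16.7 CPM in G and 33.4 and 52.4 in L. There Hmgcs1 (31.2 and 25.8 against 30.9 and 28.2) and Insig1 (25.0 and 27.0 against 22.3 and 28.2) overlapped. No test was run on these clusters. In L, both C19 levels of Fdps lay below those of C9, C11, C14 and C15. The part of free RNA in these values was not tested.

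**Figure D4:**
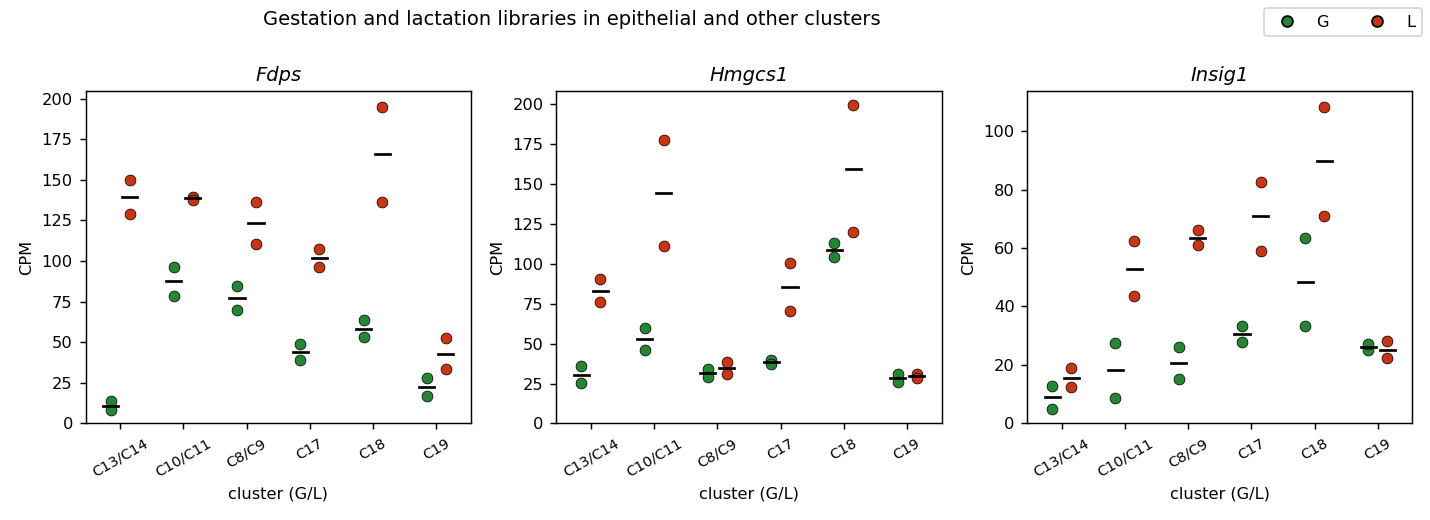
CPM (y axis, linear from 0) of Fdps, Hmgcs1 and Insig1 in G and L libraries for 3 epithelial pairs of clusters and for C17, C18 and C19 (x axis); points are libraries, lines their mean. Fdps of both L libraries lies above both G libraries in each of the 6 pairs, while Hmgcs1 and Insig1 overlap in C19. All pairs come from the same G and L libraries, so they are not independent of each other. The other members are not shown, and the share of all genes that lie apart in this way was not counted.

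Within the alveolar lineage of 1 stage, C8 was compared with C10 in G and C9 with C11 in L, both within mouse. In G, 1 of 8 members was higher in C8 and 1 lower, beside 14.4% and 13.8% of all tested genes. Mvd had 31.1 and 28.7 CPM in C8 against 16.8 and 20.6 in C10 (0.78 ± 0.20, edgeR adjusted p = 0.00105), and Hmgcs1 34.2 and 29.1 against 59.7 and 46.2 (-0.62 ± 0.15, edgeR adjusted p = 0.000426). Neither call passed in DESeq2 (adjusted p = 0.149 and 0.114). Sqle (-0.22), Idi1 (0.25), Fdps (-0.06), Lss (-0.25), Insig1 (0.36) and Srebf2 (-0.11) did not pass in edgeR.

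In L, 3 of 6 tested members were higher in C9 than in C11 and 1 lower, beside 7.42% and 6.77% of all tested genes. Hmgcs1 was lower by -1.17 ± 0.29 (38.4 and 31.0 CPM against 111 and 178; edgeR adjusted p = 0.00196) and lower on every scale tried. Mvd (1.80 ± 0.46) and Insig1 (1.15 ± 0.28) were higher with TMM, but did not pass with library totals (0.91 and 0.25). Fdps passed at 0.70 ± 0.25 (edgeR adjusted p = 0.0448), under none of the other settings (0 of 6), and was -0.20 with library totals, where its CPM was 136 and 111 against 140 and 138. Sqle (0.46) and Srebf2 (-0.53) did not pass, and Idi1 and Lss were not tested. DESeq2 called 0 of the members here, and edgeR without the mouse term 2.

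The step from luminal progenitors of NP (C6) to alveolar progenitors of G (C10) had 3 of 7 tested members higher and 0 lower, beside 24.3% and 23.2% of all tested genes. Fdps had 96.4 and 78.6 CPM in C10 against 25.1 and 14.1 in C6 and rose by 2.10 ± 0.22 (edgeR adjusted p = 1.63e-05). Mvd rose by 0.92 ± 0.31 and Hmgcs1 by 0.67 ± 0.19 (edgeR adjusted p = 0.0274 and 0.0110), and each lost its call under 3 of 10 alternatives. Sqle (-0.37), Lss (0.19), Insig1 (0.27) and Srebf2 (-0.23) did not pass, and Idi1 was not tested. Of 12 other sterol enzymes 11 were tested, 7 were higher and 1 lower, with Acat2 (2.17 ± 0.33), Mvk (1.91 ± 0.43) and Pmvk (1.63 ± 0.21) changing most. In the uptake, transport and efflux list, 3 of 12 tested genes were higher and 2 lower: Stard4 rose by 2.26 ± 0.33, and Vldlr, a lipoprotein receptor, fell by 2.003 ± 0.28. Cell division genes were higher in C10 (10 of 10).

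In basal cells from NP (C12) to G (C13), 1 of 7 tested members was higher and 0 lower, beside 24.6% and 22.2% of all tested genes. Hmgcs1 had 35.9 and 25.4 CPM against 22.8 and 18.8 (0.62 ± 0.21, edgeR adjusted p = 0.0244) and held its call under 4 of 10 alternatives. Without G replicate 2, 4 members passed, and without either NP replicate or without G replicate 1 Hmgcs1 did not. With a replicate block 3 passed. Fdps was 13.7 and 8.24 CPM against 16.5 and 12.4, so that the high level of Fdps in basal cells was seen in L and not in G. Fdps (-0.35), Sqle (-0.37), Lss (0.06), Insig1 (0.97), Srebf2 (0.33) and Mvd (0.29) did not pass, and Idi1 was not tested. Of 11 tested sterol enzymes 3 were higher and 3 lower, with a median of 0.35 beside 0.01 over all genes: Mvk, mevalonate kinase, rose by 1.48 ± 0.42, while Msmo1 fell by 1.60 ± 0.19 and Fdft1 fell by 0.998 ± 0.29. In the uptake, transport and efflux list 7 of 13 tested genes were higher and 1 lower.

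NP and PI were compared within 3 luminal types. By the vaginal smears of the study, both NP mice and PI replicate 2 were in estrus and PI replicate 1 in diestrus. An age is given for the NP mice only, and the PI mice had been through pregnancy, nursing and weaning. The part of cycle stage and age in the differences between NP and PI was not tested. In Hsd cells (C3 of PI against C4 of NP), 2 of 8 members were higher and 0 lower, beside 8.54% and 7.54% of all tested genes. Sqle had 121 and 117 CPM against 72.6 and 69.6 (0.68 ± 0.15, edgeR adjusted p = 0.00730), and Fdps 54.0 and 60.5 against 40.5 and 25.0 (0.77 ± 0.20, edgeR adjusted p = 0.0184). Neither overlapped between stages, and both lost the call without NP replicate 2 (edgeR adjusted p = 0.0602 and 0.257). Hmgcs1 (0.50 ± 0.21, edgeR adjusted p = 0.137), Idi1 (0.72), Lss (0.15), Insig1 (-0.40), Srebf2 (0.12) and Mvd (0.33) did not pass. Pmvk (1.17 ± 0.16) and Sc5d (0.83 ± 0.16) were among 4 of 12 other sterol enzymes that were higher, with 0 lower.

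In Lp cells (C7 of PI against C6 of NP), 0 of 7 tested members were higher and 1 lower, beside 14.2% and 13.3% of all tested genes. Hmgcs1 had 20.4 and 15.3 CPM against 32.9 and 32.4 and fell by 0.78 ± 0.19 (edgeR adjusted p = 0.00925; DESeq2 adjusted p = 0.0578). Sqle (-0.01), Fdps (0.25), Lss (-1.09), Insig1 (-0.34), Srebf2 (-0.14) and Mvd (0.10) did not pass, and Idi1 was not tested. Of 11 tested sterol enzymes 4 were higher and 1 lower, with Ebp at 1.23 ± 0.15, Acat2 at 1.22 ± 0.32 and Msmo1 at -1.04 ± 0.16. Fatty acid synthesis genes were higher in 7 of 10 (Scd1 2.51 ± 0.33), and milk protein genes in 7 of 7 tested. The change from NP to PI in Hsd cells minus that in Lp cells was tested after these values were seen: 2 of 8 members were higher and 0 lower, beside 6.48% and 7.26% of all tested genes, Hmgcs1 by 1.31 ± 0.22 (edgeR adjusted p = 0.000658) and Sqle by 0.70 ± 0.18 (edgeR adjusted p = 0.0159). Idi1 (1.53), Fdps (0.49), Lss (1.27), Insig1 (-0.02), Srebf2 (0.25) and Mvd (0.16) did not pass.

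In Hsp cells (C1 of PI against C2 of NP) edgeR called 0 of 7 tested members (1 at an unadjusted p under 0.05, and 0 in DESeq2), beside 9.45% of all tested genes higher and 6.80% lower. Fdps had 33.9 and 37.4 CPM against 30.4 and 17.9 (0.55 ± 0.21, edgeR adjusted p = 0.101). Sqle had 83.1 and 82.4 CPM against 70.4 and 71.1 (0.22 ± 0.13, edgeR adjusted p = 0.288). The log2 differences were -0.09 for Hmgcs1, 0.01 for Lss, -0.20 for Insig1, -0.07 for Srebf2 and 0.23 for Mvd, and Idi1 was not tested.

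Within NP, Hsd cells (C4) were compared with Lp cells (C6) of the same mice. There 1 of 7 tested members was higher and 2 lower, beside 31.5% and 29.7% of all tested genes. Insig1 had 3.08 and 3.79 CPM in C4 against 14.5 and 14.1 in C6 (-2.01 ± 0.28, edgeR adjusted p = 1.17e-11). That call held under all 6 alternatives with a test, but its p-value rests on a spread pooled over all genes (1 residual degree of freedom). Hmgcs1 was lower by -0.60 ± 0.16 (21 and 20.4 CPM against 32.9 and 32.4), and Fdps higher by 0.79 ± 0.17 (40.5 and 25.0 CPM against 25.1 and 14.1). The CPM of Fdps overlapped across mice but was higher in C4 than in C6 within each mouse. Sqle (0.19), Lss (-0.39), Srebf2 (-0.14) and Mvd (0.02) did not pass, and Idi1 was not tested. In DESeq2 the Fdps and Hmgcs1 calls did not pass (adjusted p = 0.0608 and 0.138). The levels of the enzyme Fdps and the regulator Insig1 stood in opposite order in these luminal types.

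Genes with a pattern like the members were ranked by Pearson's r with the members' mean standardised level over the 35 sums, among 8017 genes of at least 10 CPM. The highest were Atf3 (0.83), Nsdhl (0.78), Hspa1b (0.77), Cdpf1 (0.77), Fos (0.77), Cyb5b (0.76), Btg2 (0.76), Pmvk (0.76), Gmppa (0.75) and Hspa1a (0.75). Nsdhl and Pmvk are sterol pathway enzymes, and Atf3, Fos, Btg2, Hspa1a and Hspa1b are immediate-early or heat-shock genes. The other listed sterol enzymes that were among these 8017 genes ranked from 524 (Cyp51, r = 0.43) to 4063 (Sc5d, r = -0.10). The ranking rested on the L sums: without them, 0 of the 20 highest genes stayed among the highest 20.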

How the data were processed

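Sources were the UMI count matrices of 8 libraries and a cell annotation. Per the labels and the study's methods, the authors ran Cell Ranger with STAR against mm10, versions not given in the sources used here, and deposited whole UMI counts without normalisation, plus mitochondrial shares as a fraction, quality flags and clusters. Cells passing all flags were used, except C20, a cluster that the authors took for doublets (103 and 205 cells in G, 1 each in an L and a PI library). No doublet caller was run here. The flags also remove 392 barcode sequences seen in more than 1 library (791 barcodes). 1 annotated cell had no matrix barcode. In 1096 annotated cells the UMI total of the matrix differed from the annotated total.

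Counts were summed per library and cluster (20 cells or more, 51 sums). Comparisons used edgeR 4.0.16 (TMM, filterByExpr with minimum count 10 and total 15, quasi-likelihood test, Benjamini-Hochberg threshold 0.05 over all genes). They were made within mouse where both clusters came from 1 stage. The fits were also run on simulated counts. Those counts held no mouse effect and no shift in milk share, so they do not bear on the calls here. DESeq2 1.42.0 and other settings were alternatives. Limits for 0 counts (3 UMIs) cover counting error only. Replicate numbers name different mice between stages. Coordinates and promoters are GRCm38.

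Members and lists were chosen with earlier results of these data known. The 8 members were named in every comparison, and from each pathway list at most the 3 genes past the test with the largest change. A gene of the sterol list is not reported here and was left out of its counts. The comparison of 2 changes from NP to PI was added after values were seen.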

Additional observations from a re-analysis of the deposited data

Results flagged for a closer look

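5 results were picked out because a change between stages differed between cell types by a direct test. From G to L, the change in Avd cells minus that in basal cells was -2.31 for Fdps, -1.53 for Srebf2 and 1.53 for Insig1 (log2).

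From NP to PI, the change in Hsd cells (C4 to C3) minus that in Lp cells (C6 to C7) was 1.31 ± 0.22 for Hmgcs1 (edgeR adjusted p = 0.000658) and 0.70 ± 0.18 for Sqle (edgeR adjusted p = 0.0159). Hmgcs1 lost the call without NP replicate 1 or NP replicate 2 (edgeR adjusted p = 0.239 and 0.198), and Sqle lost it under 6 of 10 alternatives.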

How the results depend on the processing

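With 2 mice a stage the spread is poorly known, and C9 has few cells: Idi1 and Lss rest on 6 UMIs each there. Comparisons of clusters within mouse left 1 residual degree of freedom, so their spread came almost wholly from all genes together. Prior degrees of freedom were infinite in C8 against C10 and C4 against C6, and 89.76 in C9 against C11. The p-values of those fits hardly reflect the spread of a single gene between mice. The calls in C14 against C13 and in C11 against C10 held under every alternative run for them, 10 each. Of the single-member values under alternatives, 46 changed sign, and in 41 of these the member passed the test neither before nor after. The cause of the changes below was not tested. A cell minimum of 50 could not be used for C9.

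The number of members called moved as follows. With DESeq2 it was 0 instead of 1 in C13 against C12, 0 instead of 1 in C7 against C6, 1 instead of 3 in C10 against C6, 0 instead of 2 in C8 against C10, 0 instead of 4 in C9 against C11, 1 instead of 3 in C4 against C6 and 1 instead of 2 in the change from NP to PI. In 1 fit over all sums it was 0 in C13 against C12, 1 in C8 against C10, 2 in C9 against C11 and 1 in the change from NP to PI. With no filter it was 2 in C13 against C12 and 1 instead of 0 in C1 against C2. With library totals it was 2 in C9 against C11, and 6 instead of 3 in the change from G to L. Leaving out 1 replicate at a time gave 0 to 4 in C13 against C12, 0 to 1 in C1 against C2, 0 to 3 in C3 against C4, 1 to 2 in the change from G to L and 0 to 1 in the change from NP to PI, these last 2 also without the mouse term.

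Replicate numbers name different mice between stages, and same-numbered sums deviated together with correlations of -0.0528 to 0.0662, so the numbers pair nothing. With a replicate block on that number 3 members were called in C13 against C12. Where both clusters came from the same mice the mouse was in the fit, and with no replicate block 2 were called in C9 against C11, and Mvd in C4 against C6 changed sign (-0.0042).

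Signs turned with library totals for Sqle (-0.30), Srebf2 (-0.81) and Mvd (-0.20) in C9 against C8, Sqle in C11 against C10 (-0.22), Lss in C13 against C12 (-0.033), Sqle (-0.43) and Fdps (-0.20) in C9 against C11, Mvd in C4 against C6 (-0.028), Mvd in the change from G to L (-0.080) and Insig1 in the change from NP to PI (0.10). With no filter they turned for Mvd in C14 against C13 (0.035) and Sqle in C7 against C6 (0.037), and in 1 fit over all sums for the same pair (0.052 and 0.0079) and for Mvd in C4 against C6 (-0.070).

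Without 1 replicate at a time the log2 differences of these members crossed 0. In C9 against C8, Lss ran from -0.38 to 1.67 and Srebf2 from -0.055 to 0.34. In C11 against C10, Sqle ran from -0.22 to 0.38 and Mvd from -0.83 to 0.37. In the basal steps, Lss ran from -0.27 to 0.91 and Mvd from -0.14 to 0.62 in C13 against C12, and Mvd from -0.17 to 0.17 in C14 against C13. In C7 against C6, Sqle ran from -0.14 to 0.11, Fdps from -0.055 to 0.73, Srebf2 from -0.30 to 0.017 and Mvd from -0.14 to 0.47. In C1 against C2, Hmgcs1 ran from -0.24 to 0.14, Lss from -0.026 to 0.073 and Insig1 from -0.42 to 0.15. Mvd ran from -0.19 to 0.55 in C3 against C4. In C10 against C6, Lss ran from -0.021 to 0.44 and Insig1 from -0.71 to 0.92. In the change from NP to PI, Insig1 ran from -0.82 to 0.15 and Mvd from -0.33 to 0.39. In C9 against C11 each mouse alone gave CPM ratios of -0.31 and -0.036 (log2) for Fdps and of -0.079 and 1.95 for Mvd, while TMM-scaled CPM, tried after the CPM ratios were seen, gave 0.61 and 0.78 for Fdps and 0.80 and 2.71 for Mvd.

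Leaving milk protein genes out of the total moved the summed level of the members in C9 from 308 to 544 CPM. Of the 20 genes with the most similar pattern, 9 stayed at a minimum of 50 CPM and 0 without the L sums.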
